A study of Sus scrofa with 4 samples.

Results

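The miRNAs described here are markers of the choroid plexus, the secretory epithelium that makes cerebrospinal fluid: miR-204 with its close relative miR-211, miR-448 and miR-1298. They were taken by name from small RNA libraries of piglet hippocampus. In the table of annotated pig miRNAs 1 of 326 rows carried one of these numbers, ssc-miR-204. In the table of conserved miRNA sequences, which lists entries of other species found among the pig reads, 21 of 2791 rows belonged to the families mir-204 (12 rows), mir-448 (4 rows) and mir-1298 (5 rows), 3 of 278 named families. Of the 21 rows 15 had at least 1 read in every library, and ssc-miR-204 and the 3 families each passed the minimum of 10 CPM, the scaled read level defined beside the first values, in at least 1 library.

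The piglets were purebred newborn Rongchang pigs, a Chinese breed, with the genotype label "wide type" in every library. Of 8 littermates (4 females and 4 males), 4 received 200 mg of iron dextran into muscle on day 3 and day 4 after birth to induce oxidative stress, and the other 4 were controls labelled as given no injection. There were 4 libraries, iron dorsal, iron ventral, control dorsal and control ventral hippocampus, each made from tissue mixed within its group before RNA extraction. Each combination therefore had 1 library, which leaves the variation from piglet to piglet unknown. The age at sampling is not stated in the labels.

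Choroid plexus hangs into the ventricle beside the hippocampus. Its mRNA markers, such as transthyretin, are not measured in small RNA libraries, so the name choroid plexus rests on what these miRNAs are known for and was not checked in another readout. The gene of miR-204 lies in an intron of TRPM3 in mammals, a cation channel gene active in choroid plexus and retinal pigment epithelium, and miR-211 lies in an intron of TRPM1, known from melanocytes. miR-448, miR-1264, miR-1298, miR-1911, miR-1912 and miR-764 lie in introns of HTR2C in human, a serotonin receptor gene that is very active in choroid plexus epithelium and is also used by some neurons. In the RefSeq annotation of the pig assembly Sscrofa11.1, MIR204 lies within the span of TRPM3. A miRNA acts mainly through its seed, bases 2 to 8, which pairs with target mRNAs.

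The sequences below carry most of the reads of each family, or show how near relatives were told apart. They are given 5′ to 3′ as the deposited conserved table lists them, with the seed in capitals, and the prefix names a species that carries the entry (mmu mouse, hsa human, mml rhesus macaque, rno rat).
mmu-miR-204-5p: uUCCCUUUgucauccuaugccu
mmu-miR-211-5p: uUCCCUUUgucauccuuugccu
mmu-miR-204-3p: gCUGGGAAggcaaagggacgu
hsa-miR-1298-5p: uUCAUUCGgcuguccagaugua
mmu-miR-1298-3p: cAUCUGGGcaacugauugaacu
mml-miR-1298-3p: cAUCUGGGcaacugacugaacu
hsa-miR-448: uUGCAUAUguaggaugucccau
rno-miR-448-3p: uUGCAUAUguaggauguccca
hsa-miR-1264: cAAGUCUUauuugagcaccuguu
The first entry is the only 1 of the 21 member rows whose species list includes pig. The seed UCCCUUU stood in 7 of the 2791 rows, UCAUUCG in 2 and UGCAUAU in 2, and 0 of these rows lay outside the family concerned.

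miR-211-5p differs from miR-204-5p by A17U, with positions counted from the 5′ end, and both share 1 seed. The entries of miR-204-5p held 10518 reads over the 4 libraries and those of miR-211-5p 22. By library miR-211-5p had 1 read in iron dorsal, 5 in iron ventral, 5 in control dorsal and 11 in control ventral. That is at most 0.284% of the mir-204 family in any library (exact binomial 95% interval 0.142% to 0.507%, control ventral), so the family values are in effect those of miR-204. A fish entry of miR-204 that differs from the mouse one by C11U held 10 reads.

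miR-204 was a miRNA of middle rank, ranked 134th to 150th of 321 annotated miRNAs in the 4 libraries. It stood at 164 CPM in iron dorsal (1749 reads), 178 CPM in iron ventral (2193 reads), 199 CPM in control dorsal (2457 reads) and 253 CPM in control ventral (3663 reads), where CPM is reads per 1000000 reads of a TMM-scaled library. The control ventral library was the highest and the iron dorsal library the lowest, and both iron libraries lay below both control libraries. Its share of annotated reads was 0.0153% in iron dorsal (exact binomial 95% interval 0.0146% to 0.0161%) and 0.0265% in control ventral (0.0256% to 0.0273%). All intervals of reads and ratios reflect counting error alone and set library against library, not condition against condition; reads copied by PCR are not separate molecules. In mixed tissue, fewer cells of a type and less RNA per cell cannot be told apart.

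**Figure D1:**
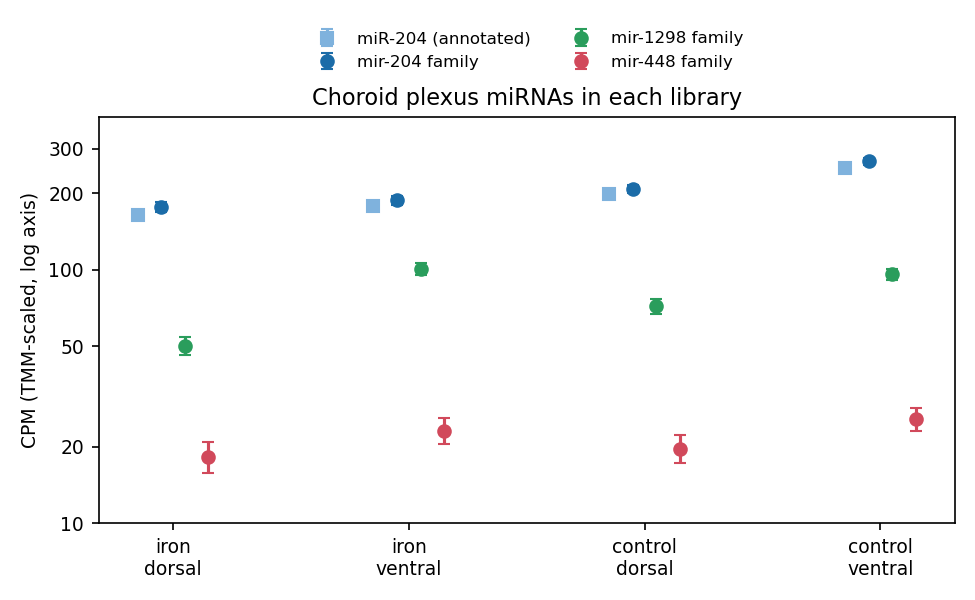
Level of each choroid plexus miRNA in each library, in CPM on a log axis; points are single libraries and bars are exact Poisson 95% intervals of the reads. miR-204 (164 to 253 CPM) and the mir-448 family (18.2 to 25.7 CPM) were highest in control ventral, while the mir-1298 family was lowest in iron dorsal at 50.1 CPM and highest in iron ventral at 101 CPM.

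Iron against control asks how these miRNAs differ after the injections. In ventral hippocampus miR-204 was 1.42-fold lower in the iron library (95% counting interval 1.35 to 1.50), the 16th lowest ratio of 251 measured annotated miRNAs. In dorsal hippocampus it was 1.21-fold lower (1.14 to 1.29), the 56th lowest of 251. A lower value with an interval below 1 was common at this depth, at 34.3% of miRNAs in ventral and 39.8% in dorsal hippocampus, where 43% and 37.8% were higher. Dorsal against ventral, it was 1.08-fold lower in iron piglets (1.02 to 1.15), where 37.5% of miRNAs were lower and 40.2% higher, and 1.27-fold lower in control piglets (1.21 to 1.34), where 36.3% were lower and 39% higher. miR-204 was thus below 1 in all 4 comparisons and past 2-fold in 0 of them. At least 2-fold lower were 1.59% of miRNAs for iron against control in ventral and 0% in dorsal hippocampus, and 0.398% for dorsal against ventral in iron and 1.59% in control piglets. For miR-204, the 2 comparisons with control ventral gave the larger differences. They share that library, so they are not independent.

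The conserved table was counted from the same libraries, so its likeness to the annotated values is no second measurement. In it the mir-204 family stood at 176 CPM in iron dorsal, 188 in iron ventral, 209 in control dorsal and 268 in control ventral. Its miR-204-5p entries held 1.04 to 1.06 times the reads of the annotated row in each library. By these entries alone, iron dorsal against iron ventral was at 0.941 with an interval that holds 1 (0.885 to 1.001). The 3p arm, the strand normally discarded from the miR-204 hairpin, was near the limit of what was countable, with 21 reads in iron dorsal, 26 in iron ventral, 19 in control dorsal and 38 in control ventral, or 0.738% to 1.12% of the family. A 20-base form of miR-204-5p, which lacks the last 2 bases of the 22-base form, made up 33.3% of both forms in iron dorsal (exact binomial 95% interval 31.1% to 35.5%), 28.6% in iron ventral (26.7% to 30.5%), 23.9% in control dorsal (22.3% to 25.6%) and 30.2% in control ventral (28.8% to 31.7%). The control dorsal library had the smallest share of the shorter form and the iron dorsal library the largest.

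miR-1298 showed the widest range of the 3 families. It stood at 50.1 CPM in iron dorsal (533 reads), 101 CPM in iron ventral (1243 reads), 71.6 CPM in control dorsal (884 reads) and 95.9 CPM in control ventral (1390 reads). Both dorsal libraries lay below both ventral libraries. In iron piglets the dorsal library was 2.01-fold lower than the ventral one (1.82 to 2.23), the 7th lowest ratio of 188 measured families. This was the 1 member family past 2-fold in any comparison; in that comparison 3.72% of families were at least 2-fold lower. With the single row of most reads in place of the family sum the ratio was 0.508, which misses 2-fold. In control piglets dorsal was 1.34-fold lower (1.23 to 1.46), the 20th lowest of 188.

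For iron against control, the mir-1298 family stood below 1 in dorsal hippocampus only. In ventral hippocampus its ratio was 1.05 (0.973 to 1.14), an interval that holds 1. In dorsal hippocampus it was 1.43-fold lower in the iron library (1.28 to 1.60), again the 20th lowest ratio of 188. With 1 library per group, no test of the difference between the regions could be made.

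The 2 arms of the miR-1298 hairpin did not keep 1 ratio in all libraries. The 5p arm held 414 reads in iron dorsal (38.9 CPM), 991 in iron ventral (80.4 CPM), 576 in control dorsal (46.7 CPM) and 1087 in control ventral (75.0 CPM). Both dorsal libraries were low in this arm. The 3p arm held 119 reads in iron dorsal (11.2 CPM), 252 in iron ventral (20.4 CPM), 308 in control dorsal (24.96 CPM) and 303 in control ventral (20.9 CPM). Only iron dorsal was low here. There were 3.48 5p reads for each 3p read in iron dorsal (2.83 to 4.30), 3.93 in iron ventral (3.42 to 4.53), 1.87 in control dorsal (1.63 to 2.15) and 3.59 in control ventral (3.16 to 4.09), so control dorsal stood apart. This quantity needs no scaling between libraries.

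In iron against control dorsal hippocampus the 5p arm was 1.20-fold lower (1.06 to 1.37) and the 3p arm 2.23-fold lower (1.80 to 2.78). In dorsal against ventral control hippocampus the 5p arm was 1.61-fold lower (1.45 to 1.78) and the 3p arm had a ratio of 1.19 (1.02 to 1.40), with an interval that holds 1 under total read scaling (0.989 to 1.37). The family's difference therefore depended on the arm in the comparisons that include the control dorsal library. In dorsal against ventral iron hippocampus, without that library, the arms were close, at 2.07-fold lower for 5p (1.84 to 2.32) and 1.83-fold lower for 3p (1.46 to 2.29).

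Nearly all 3p reads of miR-1298 were assigned to 1 sequence. The mouse entry took 977 of 982 reads over all libraries, and the human and macaque entries, which share 1 sequence but for the last base, took 5. The macaque entry differs from the mouse one by C16U, with the macaque base first. In the 5p arm a 20-base entry held 7.97% of reads in iron dorsal (exact binomial 95% interval 5.55% to 11.01%), 12.3% in iron ventral (10.3% to 14.5%), 7.64% in control dorsal (5.61% to 10.1%) and 11.4% in control ventral (9.58% to 13.4%). Within each treatment the dorsal share was below the ventral one. Their intervals overlap, but overlap of separate intervals does not test the difference, and no such test was made.

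miR-448, the least abundant of the 3, stood at 18.2 CPM in iron dorsal (194 reads), 23.2 CPM in iron ventral (286 reads), 19.6 CPM in control dorsal (242 reads) and 25.7 CPM in control ventral (373 reads). As for miR-1298, both dorsal libraries lay below both ventral ones. Dorsal against ventral, it was 1.27-fold lower in iron piglets (1.06 to 1.54) and 1.31-fold lower in control piglets (1.11 to 1.55). Iron against control, the ratio was 0.901 in ventral (0.770 to 1.05) and 0.929 in dorsal hippocampus (0.765 to 1.13), and both intervals hold 1. Its 3p arm is the main strand, and the 5p arm made up 2.48% to 5.63% of the family. The 21-base form took 47.8% of the 3p reads in iron dorsal (40.5% to 55.3%), 52.03% in iron ventral (45.9% to 58.1%), 51.3% in control dorsal (44.7% to 57.8%) and 53.4% in control ventral (48.05% to 58.7%), with intervals that all overlap.

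**Figure D2:**
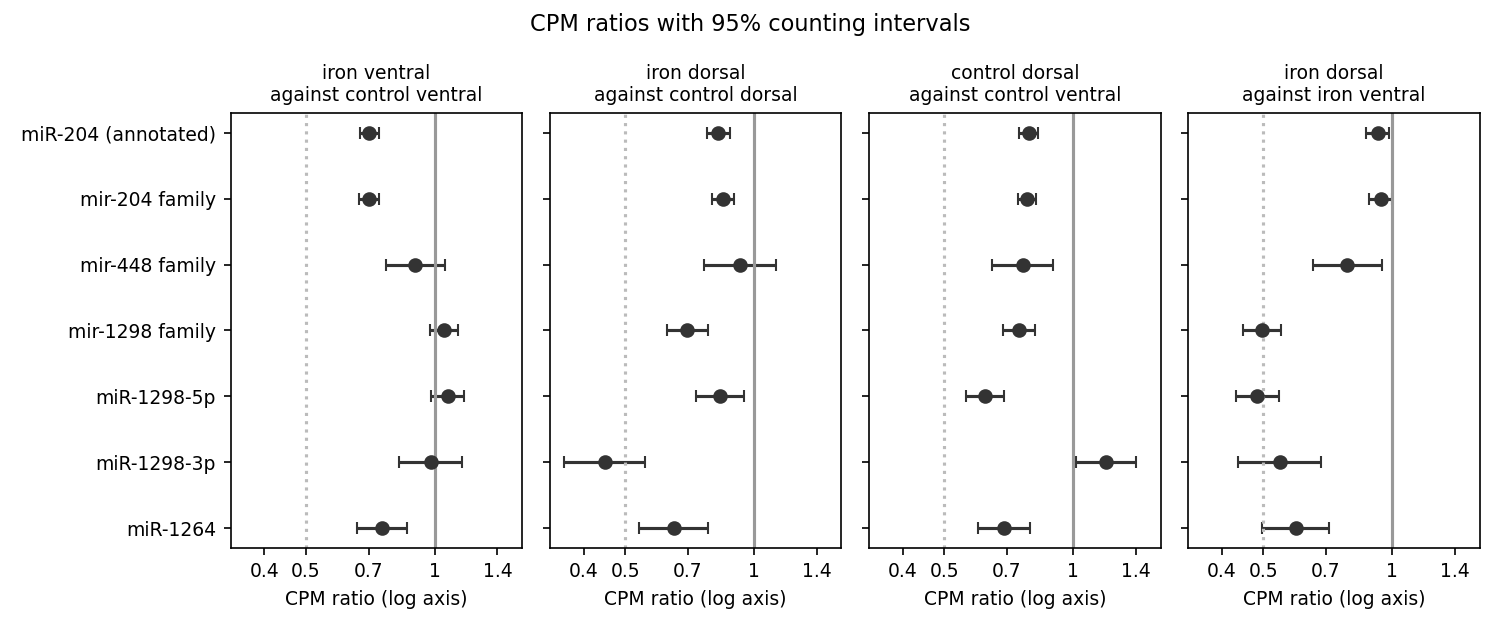
CPM ratios of the choroid plexus miRNAs in the 4 comparisons, on a log axis, with the arms of miR-1298 and miR-1264 added; points are ratios of 2 libraries, bars their exact conditional binomial 95% intervals, the solid line is 1 and the dotted line 2-fold lower. miR-204 was furthest below 1 in iron ventral against control ventral (0.704), and the mir-1298 family in iron dorsal against iron ventral (0.497).

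Of the 3 families, 1 was lower with an interval below 1 for iron against control in ventral hippocampus, where 38.3% of 188 families were (37.8% were higher), and 2 in dorsal hippocampus, where 43.6% were (38.8% were higher). Dorsal against ventral, 3 of 3 were lower in iron piglets, where 42% of families were (35.1% were higher), and 3 of 3 in control piglets, where 41% were (36.7% were higher). Past 2-fold lower were 2.66% and 1.6% of families for iron against control in ventral and dorsal hippocampus, and 2.13% for dorsal against ventral in control piglets, with 0 members among them. The 4 comparisons share libraries in pairs. Among all 12 family ratios 9 were lower, 0 higher and 3 had intervals that hold 1. The mir-204 call in iron piglets was at the edge of its interval (0.884 to 0.999) and was lost with DESeq2 size factors, at 0.941 (0.885 to 1.0007). The median log2 ratio of all families was between -0.05 and -0.01 in the 4 comparisons. From the lowest ratio of 188, the mir-1298 family ranked 115th and 20th for iron against control in ventral and dorsal hippocampus, and 7th and 20th for dorsal against ventral in iron and control piglets. In the same order of comparisons the mir-204 family ranked 18th, 56th, 78th and 28th, and the mir-448 family 57th, 83rd, 32nd and 22nd.

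**Figure D3:**
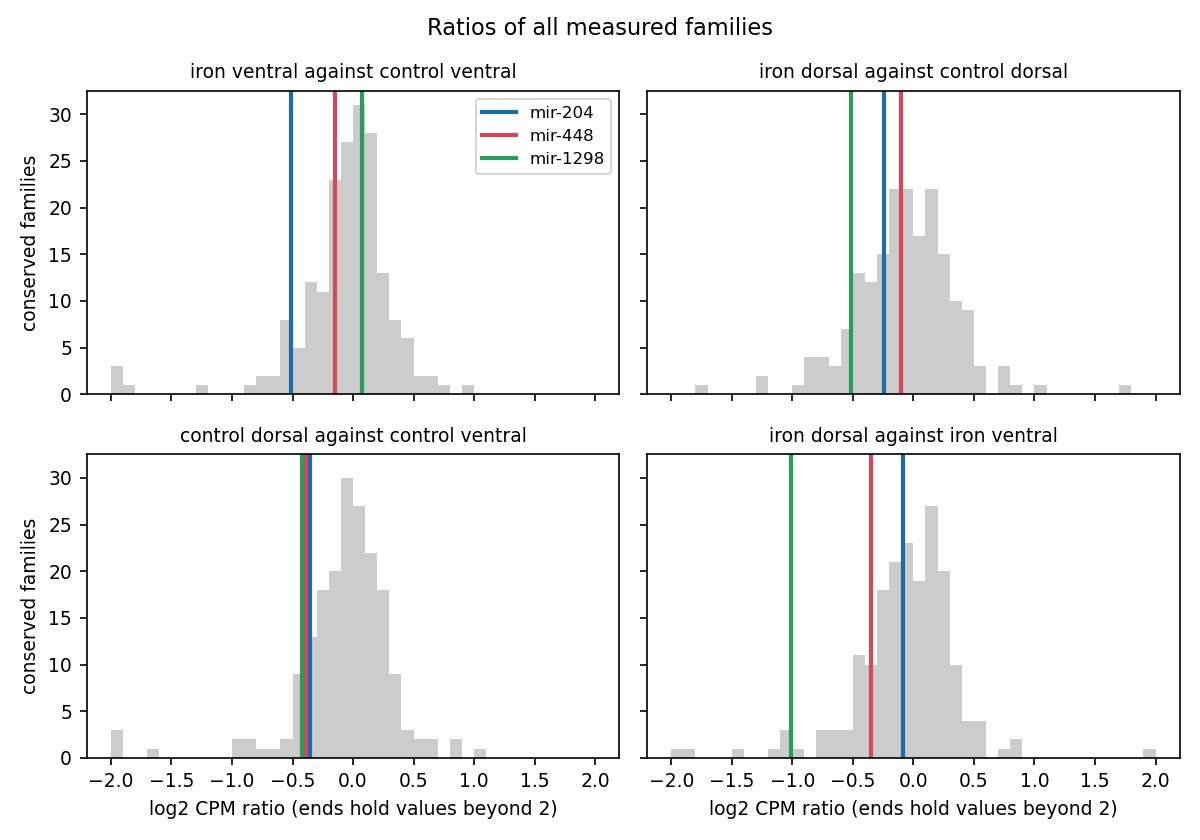
Distribution of the log2 CPM ratio of 188 conserved families in each comparison, with the 3 choroid plexus families as vertical lines; the vertical axis counts families and the end bars hold values beyond 2. In control dorsal against control ventral the 3 lines lie together between -0.42 and -0.36, and in iron dorsal against iron ventral they spread from -1.01 to -0.09.

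Over all 4 libraries, edgeR's quasi-likelihood test with region and treatment as terms gave miR-204 a log2 iron difference of -0.39 ± 0.23 (SE, adjusted p = 0.928) and a log2 dorsal minus ventral difference of -0.23 ± 0.23 (SE, adjusted p = 0.994). The values were lower in 2 of 2 regions and in 2 of 2 treatments. Fitted on the 188 families in edgeR, the dorsal minus ventral log2 difference was -0.71 ± 0.25 for mir-1298 (SE, adjusted p = 0.982, unadjusted p = 0.0535), -0.37 ± 0.19 for mir-448 and -0.22 ± 0.18 for mir-204. The iron difference was -0.38 ± 0.18 for mir-204, -0.22 ± 0.25 for mir-1298 and -0.13 ± 0.19 for mir-448, with edgeR adjusted p of 0.896 to 0.940. None of these passed the adjusted threshold of 0.05, nor did any other feature: edgeR called 0 (0%) of 251 miRNAs and 0 (0%) of 188 families for either factor. At an unadjusted p under 0.05 there were 11 miRNAs and 6 families for iron, and 8 miRNAs and 5 families for region. The DESeq2 Wald test called 1 miRNA, which is no member, for iron, and 0 in the other fits; limma-trend called 0 in all. The model leaves 1 residual degree of freedom, and each pool of piglets gave both its regions, so such p-values reflect how far 4 libraries scatter, not how far piglets do.

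Read ratios within a library compare the members with each other without any scaling. There were 0.284 mir-1298 reads per mir-204 read in iron dorsal (0.257 to 0.313), 0.537 in iron ventral (0.501 to 0.576), 0.343 in control dorsal (0.318 to 0.371) and 0.359 in control ventral (0.337 to 0.381). The intervals of the control libraries overlap, and the iron libraries lay on either side of them. Set against each other, the 2 families' ratios differed 1.50-fold in iron against control ventral (exact conditional 95% interval 1.36 to 1.64), by a factor of 0.827 in iron against control dorsal (0.730 to 0.936) and by a factor of 0.528 in iron dorsal against iron ventral (0.468 to 0.596). In control dorsal against control ventral the factor was 0.958 (0.867 to 1.06), an interval that holds 1. There were 0.103 mir-448 reads per mir-204 read in iron dorsal (0.0886 to 0.120), 0.124 in iron ventral (0.109 to 0.140), 0.0940 in control dorsal (0.0820 to 0.107) and 0.0962 in control ventral (0.0863 to 0.107). Thus iron ventral held more mir-1298 and mir-448 reads per mir-204 read than control ventral did, by 1.28-fold for mir-448 (1.09 to 1.52). miR-1264, also of the HTR2C introns, was 1.33-fold lower in iron than in control ventral, where the mir-204 family was 1.43-fold lower.

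**Figure D4:**
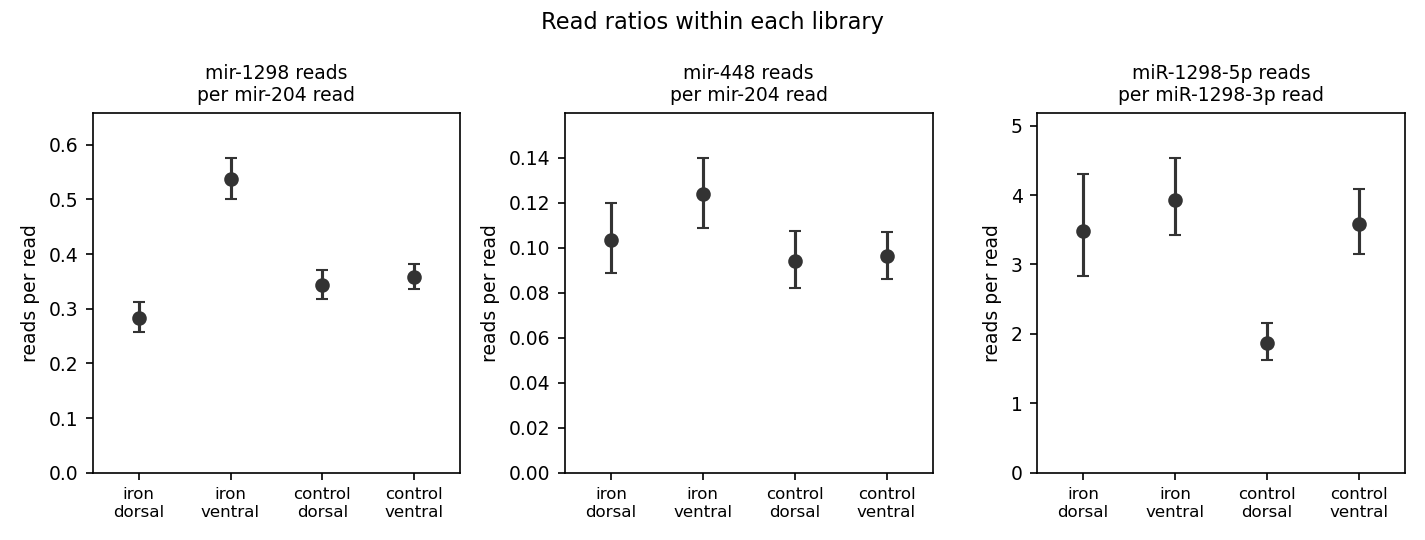
Read ratios within each library, with exact binomial 95% intervals as bars; each point is 1 library and the vertical axes count reads of the first miRNA per read of the second. mir-1298 per mir-204 read was 0.284 in iron dorsal and 0.537 in iron ventral, and the 5p to 3p ratio of miR-1298 was 1.87 in control dorsal against 3.48 to 3.93 in the other libraries.

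The other miRNAs of the HTR2C introns were read from the conserved table by their numbers. miR-1264 stood at 17.5 CPM in iron dorsal (186 reads), 29.4 CPM in iron ventral (362 reads), 26.9 CPM in control dorsal (332 reads) and 39.0 CPM in control ventral (565 reads). Dorsal against ventral it was 1.68-fold lower in iron piglets (1.40 to 2.02) and 1.45-fold lower in control piglets (1.26 to 1.66). Iron against control, it was 1.33-fold lower in ventral (1.16 to 1.52) and 1.54-fold lower in dorsal hippocampus (1.28 to 1.85). miR-1264 was thus lower in all 4 comparisons, as miR-204 was.

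miR-1911 and miR-1912 were below the minimum of 10 CPM in every library. miR-1911 had 8 reads in iron dorsal, 47 in iron ventral, 13 in control dorsal and 47 in control ventral, so both ventral libraries were above both dorsal ones. It was 5.07-fold lower in dorsal than in ventral hippocampus of iron piglets (2.38 to 12.4) and 3.08-fold lower in control piglets (1.64 to 6.20). miR-1912 had 9 reads in iron dorsal, 19 in iron ventral, 9 in control dorsal and 36 in control ventral, and was 3.41-fold lower in control dorsal than in control ventral (1.61 to 8.04). The iron dorsal and iron ventral libraries did not differ in it beyond counting error, at a ratio of 0.549 (0.219 to 1.27). miR-764 had 0 reads in both iron libraries and 1 read in each control library, where a count of 0 allows up to 3 reads, or 0.282 CPM in iron dorsal.

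Not all of the 6 HTR2C-intron miRNAs could be compared between the regions. For miR-764 in iron piglets no ratio could be formed, with 0 reads in both libraries, and for miR-1912 there the interval holds 1. The median ratio of all families, dorsal against ventral, was itself 0.978 in each treatment. Only 3 of the 6, miR-448, miR-1264 and miR-1298, reached 10 CPM. Those 3 were lower with intervals below 1 in dorsal against ventral hippocampus of both treatments, with a median ratio of 0.595 in iron piglets, where 42% of all families were lower, and 0.747 in control piglets, where 41% were. For iron against control 1 of the 3 was lower in ventral hippocampus, where 38.3% of families were, and 2 in dorsal hippocampus, where 43.6% were. Summed, the 6 stood at 87.3 CPM in iron dorsal, 159 in iron ventral, 120.0 in control dorsal and 166 in control ventral.

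**Figure D5:**
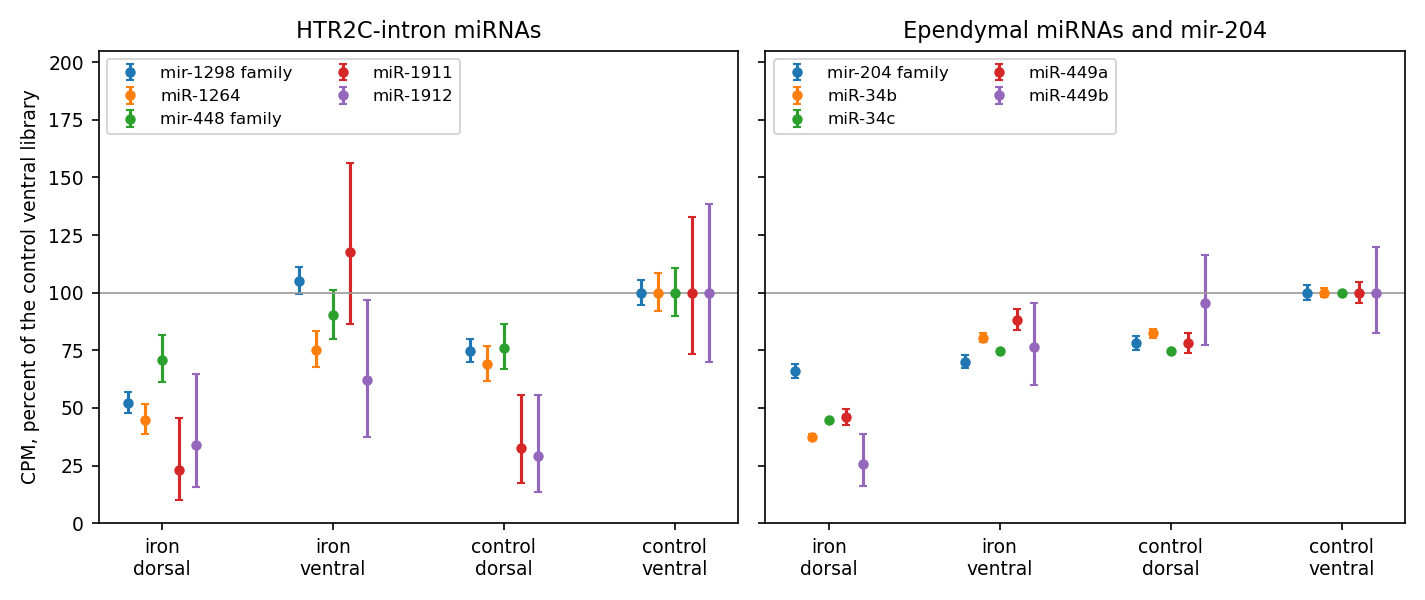
Levels as a percent of the control ventral library for the HTR2C-intron miRNAs (left) and for the mir-204 family with miRNAs of multiciliated cells (right); bars are exact Poisson 95% intervals of each library's own reads. In iron dorsal the 5 HTR2C-intron miRNAs drawn stood at 23.2% to 70.8%, the mir-204 family at 65.9% and miR-34b, miR-34c, miR-449a and miR-449b at 25.6% to 46.1%.

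Multiciliated ependyma lines the ventricle next to the choroid plexus. The markers listed for it, miR-34b, miR-34c and miR-449, were lower in several of the same comparisons. Which cells they came from was not tested, so they do not set ependyma apart from choroid plexus. Of 5 listed numbers 4 had rows in the conserved table and 3 reached 10 CPM, and the 4 together stood at 3885 CPM in iron dorsal, 6605 in iron ventral, 6587 in control dorsal and 8759 in control ventral. Of the 3 that reached it, 3 were lower in each of the 4 comparisons, in which 38.3% to 43.6% of all conserved families were lower. miR-34c, by far the most abundant, was 1.66-fold lower in iron than in control dorsal (1.64 to 1.68) and 1.34-fold lower in iron than in control ventral (1.33 to 1.35). miR-449a was 1.92-fold lower in iron dorsal than in iron ventral (1.75 to 2.10). The part of ependyma in the choroid plexus values was not tested.

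Among the sums of the lists of markers of other cells, only that of the immune list followed the order of libraries of miR-204. The neuronal list, with 9 measured members led by miR-124a, summed to 59227 CPM in iron dorsal, 70188 in iron ventral, 72881 in control dorsal and 66541 in control ventral, the largest sum of all lists. miR-124a, a miRNA of neurons, was thus abundant in all 4 libraries, which carry a brain label. The median ratio of the list was 0.827 for iron against control dorsal and 0.997 in ventral hippocampus. In dorsal hippocampus 7 of 9 rows were lower and 0 higher, with 39.8% of all miRNAs lower. In ventral hippocampus 3 were lower and 4 higher, with 34.3% of all miRNAs lower and 43% higher. Dorsal against ventral, the median was 0.872 in iron piglets, where 7 rows were lower and 2 higher (37.5% of all miRNAs lower). In control piglets it was 1.07, with 3 lower and 5 higher (36.3% and 39% of all miRNAs).

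Markers of other epithelia were also highest in control ventral. In the annotated table miR-182, miR-183 and miR-96 were measured, and with 1 further row they summed to 138.2 CPM in iron dorsal, 127 in iron ventral, 153.4 in control dorsal and 457 in control ventral. The mir-8 family, which holds the miR-200 group, stood at 13.6 CPM in iron dorsal, 16.5 in iron ventral, 18.2 in control dorsal and 148 in control ventral, and was 9.01-fold lower in iron than in control ventral (7.80 to 10.5). The mir-375 family, known from endocrine and secretory epithelia, stood at 41.6 CPM in iron dorsal, 86.0 in iron ventral, 99.4 in control dorsal and 123 in control ventral. That is the order of libraries of miR-204, and mir-375 was 2.07-fold lower in iron dorsal than in iron ventral (1.85 to 2.31), where the mir-1298 family was 2.01-fold lower.

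The sum of the immune list had the order of miR-204 too, at 811 CPM in iron dorsal, 872 in iron ventral, 927 in control dorsal and 1031 in control ventral. Most of the sum was miR-142-5p, at 542 to 653 CPM. miR-146a-5p (114 CPM in iron dorsal, 110 in iron ventral) and miR-150 (107 and 100) did not keep this order. The list has 4 rows, of which 2 are arms of miR-142. These rows were lower in iron than in control in 4 of 4 cases in ventral hippocampus (median ratio 0.760, with 34.3% of all miRNAs lower). In dorsal hippocampus 4 of 4 were lower (median 0.875, with 39.8% lower). Dorsal against ventral, 2 of 4 were lower in iron piglets (median 0.979, with 37.5% lower) and 4 of 4 in control piglets (median 0.904, with 36.3% lower). Both measured oligodendrocyte rows were lower in iron dorsal than in iron ventral (median ratio 0.637, with 37.5% of all miRNAs lower). They were also lower in iron than in control dorsal (median 0.798, with 39.8% lower). The mir-1298 family and most measured rows of the neuronal list were lower in these comparisons as well. In iron against control ventral 2 rows were higher (median 1.34, with 43% of all miRNAs higher). In control dorsal against control ventral 1 row was higher and 0 lower (median 1.07, with 39% higher). The mir-1298 family was 1.34-fold lower there. Vessel miRNAs summed to 16024 to 21938 CPM, red cell miRNAs to 837 to 1075 CPM and oligodendrocyte miRNAs to 8812 to 13907 CPM, and these 3 lists were highest in control dorsal, control ventral and iron ventral in that order. The part of all these markers in the values of miR-204, miR-448 and miR-1298 was not tested.

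Among 250 other measured annotated miRNAs, the 5 whose pattern over the 4 libraries lay nearest to miR-204 were miR-29b, miR-328, miR-190a, miR-545-5p and miR-22-5p. Their root mean square difference from it on the log2 scale, each miRNA centred on its own mean, was 0.02 to 0.10, against a median of 0.28 over all 250. miR-29b, of a family known for targeting collagen mRNAs, stood at 272 CPM in iron dorsal, 295 in iron ventral, 326 in control dorsal and 432 in control ventral. With 4 libraries such likeness is a description only. miR-204 itself ranged over 0.62 on the log2 scale, where the median miRNA ranged over 0.41 and 46 of 251 ranged more widely. Its neighbours in mean level, miR-4334-3p and miR-345-5p above it and miR-769-3p and miR-106a below it, did not have its order of libraries: miR-769-3p, for example, stood between 189 and 207 CPM in all 4.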

How the data were processed

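The members, lists and tests were chosen with earlier results of these data known. Small RNA reads were trimmed with cutadapt 1.2.2, and the builds Sscrofa 10.2 and susScr 3 were used, per the submitters' processing notes; the aligner and quantifier are not stated there. The authors deposited reads per row, which are estimated counts since 75.8% to 77.0% of annotated cells are exactly whole (tolerance 0), and RPM values, per the file headers; how reads were divided between rows is not stated. Reads were rounded to whole numbers (family sums after summing), and annotated rows that share precursors and differ by under 0.1% in reads were merged, leaving 321 of 326. Annotated libraries held 11396823 to 13839578 reads and conserved ones 11295857 to 13863916, so 3 reads, about the 1-sided 95% limit of a count of 0, were 0.207 to 0.282 CPM. TMM factors of the annotated table (edgeR 4.0.16, R 4.3.3) scaled both tables. Features with 10 CPM in at least 1 library were measured: 251 miRNAs and 188 families. Family reads are sums over rows. Ratios carry exact conditional binomial (Clopper-Pearson) 95% intervals (scipy 1.17.1), with 2-fold and an interval excluding 1 as the call. edgeR's quasi-likelihood test, with Benjamini-Hochberg adjustment, was run on all measured features; the fit of families was added after the levels were seen. DESeq2 1.42.0 and limma 3.58.1 were alternatives, with other scalings and minimums. Named miRNAs were the members, every miRNA of 9 marker lists (counted; up to 3 named), the 5 nearest in pattern to miR-204 and its 2 neighbours on each side in level. The table of predicted miRNAs, which gives no sequences to match with member seeds, and the RPM columns of the conserved table were not used (12 columns).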

Additional observations from a re-analysis of the deposited data

Results flagged for a closer look

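The values here were picked out because a member stood above 1 in one region or treatment and below 1 in the other; with 1 library per group the difference itself was not tested. The iron log2 ratio of the mir-1298 family was -0.52 in dorsal and 0.07 in ventral hippocampus, a dorsal minus ventral difference of -0.59, and the ventral interval holds 1. For the 5p arm of miR-1298 it was -0.26 in dorsal and 0.10 in ventral hippocampus, a difference of -0.36, and again the ventral interval holds 1. For the 3p arm the dorsal against ventral log2 ratio was -0.87 in iron and 0.26 in control piglets, a difference of -1.13. Both intervals of the 3p arm exclude 1, but under total read scaling the control one does not.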

How the results depend on the processing

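Among the member ratios answering a comparison, 56 of 68 alternative values stayed inside the counting interval of the reported value and 0 changed sign. The 12 that moved were all for mir-204 or mir-1298. With total annotated reads miR-204 was at 0.756 (iron against control, dorsal) and 0.861 (dorsal against ventral, iron), and the mir-204 family at 0.774 and 0.876; with the authors' RPM miR-204 was at 0.766 in the first of these. With total reads of the conserved table the mir-204 family was at 0.780 and 0.881. With the row of most reads it was at 0.740 and 0.879, and at 0.852 for control dorsal against ventral, while the mir-1298 family was at 0.831 for iron against control dorsal and 0.648 for control dorsal against ventral; the cause was not tested. All model differences (12 of 12 and, for families, 24 of 24) kept their sign and side of the threshold. With total annotated reads edgeR called 4 families for iron and 7 for region, with an infinite prior degrees of freedom, and no member was among them: the mir-1298 family had an edgeR adjusted p of 0.174 for region. Among annotated miRNAs edgeR called 2 for iron and 3 for region with total reads or DESeq2 size factors and 3 and 4 without a minimum, again with no member, against 0 and 0 as reported. The number of annotated miRNAs past 2-fold was 5 (iron against control, ventral), 2 (dorsal), 5 (dorsal against ventral, control) and 2 (iron). Without a minimum it was 9, 6, 11 and 3, with a minimum of 100 CPM 3, 0, 2 and 0. With total reads the iron dorsal count was 4, with 3 lower and 1 higher in place of 0 lower and 2 higher. The fit with region and treatment as terms compares the regions within each pool of piglets. No paired analysis was possible because each group has 1 library, beyond that fit, and no replicate could be left out. Depth limits miR-211, miR-764, miR-1911, miR-1912 and the minor arms of miR-204 and miR-448, with 0 to 47 reads a library.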
